A study of Rattus norvegicus with 20 samples.

Results

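The genes described here make, sense and clear prostaglandin E2 (PGE2) in the cortical collecting duct. The 10 genes, chosen by symbol for their role in this pathway, are Pla2g4a, Ptgs1, Ptgs2, Ptges, Ptges2, Ptger1, Ptger3, Ptger4, Slco2a1 and Hpgd, out of 32545 genes in the count table. Gene expression was measured by RNA-seq in cortical collecting ducts dissected by hand from the kidneys of 20 male rats of the Sprague-Dawley strain, aged 5 weeks. Every rat, controls included, carried a minipump releasing DDAVP, an agonist of the vasopressin V2 receptor, at 5 ng per hour. The time on DDAVP was recorded as 5 days for every sample, whatever its day of collection. The water-loaded rats took in 50 mL of water per day in gelled food and the control rats 25 mL per day. Ducts were collected after 1, 2 or 4 days from 3, 4 and 3 water-loaded rats and from 3, 4 and 3 control rats, with 1 library per rat. These days come from the sample titles and the design text, whereas the treatment protocol repeated for every sample speaks of 4 days of water load, so each comparison of days rests on the titles. This setting is used to study vasopressin escape, in which the kidney begins to excrete water again although vasopressin action is kept up. No rat without DDAVP is among these samples.

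PGE2 is made in steps. A phospholipase A2 frees arachidonic acid from membranes, a cyclooxygenase turns it into prostaglandin H2, and a PGE synthase turns that into PGE2. PGE2 acts on EP receptors: EP1 signals through calcium, EP2 and EP4 raise cyclic AMP, and EP3 lowers it. In the collecting duct PGE2 is known to oppose the action of vasopressin on water transport and to reduce sodium absorption. The prostaglandin transporter takes PGE2 up into cells, where a dehydrogenase inactivates it.

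Reads on genes numbered 33.5 M to 74.9 M per library (median 55.7 M), and 12665 to 15266 genes had at least 1 read. A floor of 3 counts corresponded to 0.0414 to 0.0926 CPM (counts scaled to library size with TMM factors). The principal cell markers, 12 genes that include Aqp2, summed to 15400 to 30800 CPM in water-loaded rats and 27400 to 72700 CPM in control rats, and all 12 were detected. Aqp2, the vasopressin-regulated water channel, averaged 13400 ± 3750 CPM in water-loaded rats and 28800 ± 11900 CPM in control rats, as mean ± SD over 10 rats each. It fell by 1.07 on the log2 scale over the average of days (SE 0.19, edgeR adjusted p = 0.0262). Aqp3, the basolateral water channel, averaged 1050 ± 380 CPM in water-loaded rats and 3400 ± 1830 CPM in control rats, and fell by 1.59 on the log2 scale (SE 0.21, edgeR adjusted p = 0.00229). Markers of intercalated cells, the other main cell type of this segment, summed to 12400 to 19000 CPM in water-loaded rats and 11300 to 17500 CPM in control rats. A pair of day 1 libraries stood apart. Their TMM factors were 0.686 in water-loaded rat 2 and 0.645 in control rat 1, against 0.904 to 1.22 in all others. A low factor raises the CPM of a library. In water-loaded rat 2 the proximal tubule markers (15 genes) summed to 9150 CPM, against 116 and 285 CPM in the other water-loaded rats of that day. In control rat 1 the fibroblast and pericyte markers (8 genes) summed to 1610 CPM, against 34.6 and 52.2 CPM in the other control rats of that day. Day 2 control rat 1 also had proximal tubule markers at 2770 CPM, against 154 to 257 CPM in its group. In such bulk samples, fewer cells of a type and less RNA per cell cannot be told apart.

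The levels of the 10 genes spanned a wide range. They are compared here as FPKM, the authors' values scaled for gene length and depth. Ptges, the inducible microsomal PGE synthase, was the most abundant at a mean of 556 ± 162 FPKM over all 20 libraries (SD), above 98.7% of the 14472 genes tested. Ptges2, the second microsomal synthase, followed at 81.3 ± 27.3 FPKM and was below Ptges in 20 of 20 libraries. The receptor genes Ptger1 (EP1) and Ptger3 (EP3) averaged 45.2 ± 32.1 and 44.4 ± 31.6 FPKM. Ptger1 was the higher in 11 of 20 libraries, so their order was not distinguishable. Ptgs1, the constitutive cyclooxygenase, averaged 21.6 ± 13.9 FPKM and was below Ptger3 in 16 libraries.

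The other 5 genes were low. Slco2a1, the prostaglandin transporter, averaged 2.42 ± 3.73 FPKM and Ptger4 (EP4) 2.2 ± 2.52 FPKM, in an order that differed between libraries, with Slco2a1 higher in 8 of 20. Pla2g4a, the cytosolic phospholipase A2, averaged 1.17 ± 1.13 FPKM and was below Ptger4 in 13 libraries. Ptgs2, the inducible cyclooxygenase, averaged 0.128 ± 0.269 FPKM and was below Pla2g4a in 18 libraries. Hpgd, the dehydrogenase that inactivates PGE2, averaged 0.00267 FPKM. Ptger2 (EP2) had 0 counts in all 20 libraries, under the floor of 3 counts. Per length, the mean level of each of these PGE synthases was above that of Pla2g4a and of both cyclooxygenases.

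**Figure D1:**
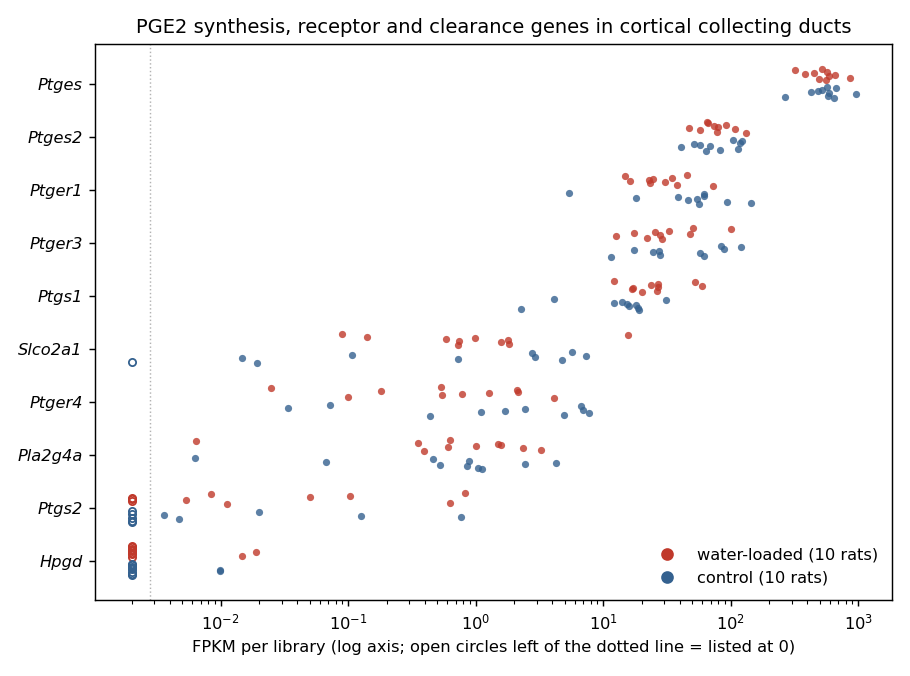
FPKM of the 10 genes, 1 point per library on a log axis, with 10 water-loaded rats above 10 control rats in each row; open circles mark libraries in which a gene is listed at 0. The rows are ordered by mean level, and Ptges at a mean of 556 FPKM lies apart from all others while Ptgs2 and Hpgd include many libraries at 0.

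Of the 10 genes, 9 passed the filter on low counts, and Hpgd did not. Under water load 0 of these 9 passed the test over the average of days, against 23 genes or 0.159% of all 14472 genes. Fitted differences were positive for 2 and negative for 7 of them, with a median of -0.22 on the log2 scale, against 0.01 over all genes. An unadjusted p under 0.05 was reached by 2 of 9, Ptgs1 and Ptger1, against 13.5% of all genes. At day 1, day 2 and day 4 taken singly, 0 of 9 passed, as did 0% of all genes in each. Unadjusted p-values under 0.05 were seen in 0, 0 and 1 of 9 genes at days 1, 2 and 4, against 15.6%, 5.23% and 7.22% of all genes. The effect of water load differed between days for 0 of 9 after adjustment, again with 0% of all genes, and 1 of 9 had an unadjusted p under 0.05, against 8.56% of all genes. DESeq2 and limma-voom also called 0 of the 9 genes in these 5 comparisons. Of all genes DESeq2 called 714 over the average of days, 1132, 77 and 319 at days 1, 2 and 4, and 183 for the difference between days, where limma-voom called 63, 2, 20, 0 and 1. Overlap of the treatments was counted in CPM. Water-loaded and control rats did not overlap, with all water-loaded rats higher, for 0, 1 and 0 of 9 genes at days 1, 2 and 4, against 5.71%, 2.35% and 7.93% of all genes. With all water-loaded rats lower they did not overlap for 1, 0 and 0 of 9, against 5.17%, 1.88% and 6.73% of all genes. In simulated data for the average of days, 73% of 100 genes with a log2 change of 2 were recovered. They were drawn from genes with a mean of at least 10 CPM and not matched to the spread of the 9 genes. Pla2g4a, Ptgs2, Ptger4 and Slco2a1 lay below that level, with means of 3.12, 0.504, 3.27 and 9.83 CPM over all libraries.

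**Figure D2:**
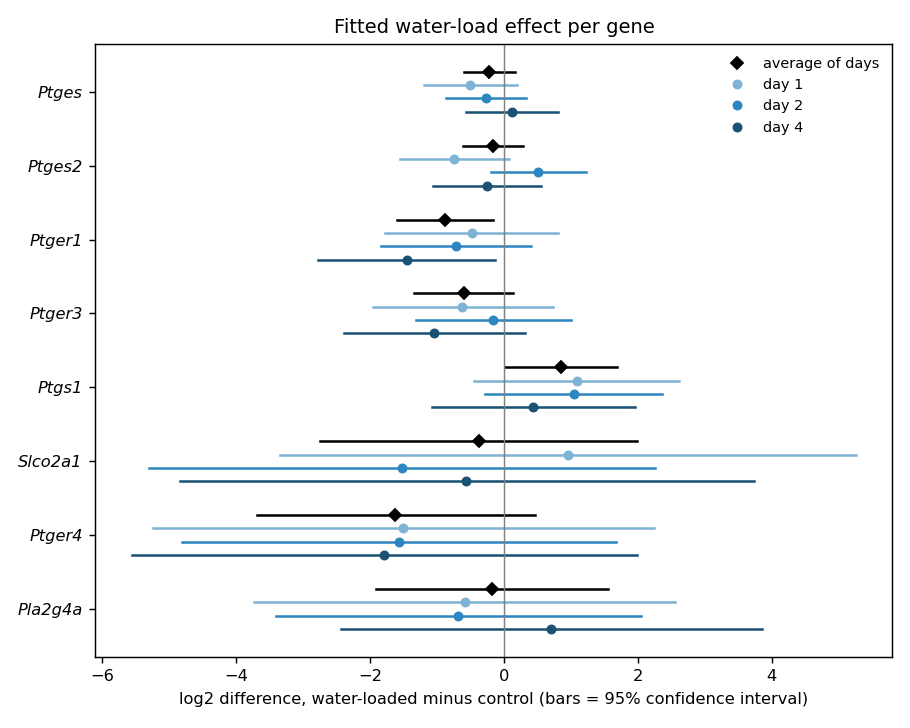
Fitted log2 difference, water-loaded minus control, with 95% confidence intervals, for the average of days (diamonds) and for each day (circles), for 8 genes; Ptgs2, with 8 libraries at 0, and Hpgd are left out. Intervals are narrow for Ptges and Ptges2 and several log2 units wide for Slco2a1, Ptger4 and Pla2g4a.

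At the first step, Pla2g4a was low in every group. It had 1.62, 0.0265 and 0.959 CPM in day 1 water-loaded rats, against 0.0276, 1.37 and 2.5 CPM in day 1 control rats. At day 2 the values were 4.17, 4.39, 2.47 and 1.83 CPM in water-loaded rats, against 0.187, 12.7, 6.19 and 1.46 CPM in control rats. At day 4 they were 5.45, 7.57 and 0.926 CPM in water-loaded rats, against 2.5, 3.27 and 2.73 CPM in control rats. The groups overlapped at every day, and the lowest value of each treatment came from the libraries that stood apart at day 1. The difference over the average of days was -0.18 on the log2 scale (95% interval -1.91 to 1.55, edgeR adjusted p = 1), and 0.09 in limma-voom.

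The cyclooxygenases catalyse the same step and differed most in level. Their upstream sequences, from RefSeq on build GRCr8, are shown for that contrast, each with 250 bases before the gene start, and 9 of the 10 genes had an entry there. Capitals mark matches on either strand to 4 short motifs. Of 33465 rat promoters of this length, 12.9% hold TATAAA, the core of a TATA box. A CCAAT box, searched as CCAAT, is held by 34%. A GC box, searched as GGGCGG, is held by 30.5%. The core of a cyclic AMP element, searched as TGACG, is held by 18.2%. No matches overlapped in the sequences shown.
Ptgs1 (chr3:39981169-39981418, plus strand): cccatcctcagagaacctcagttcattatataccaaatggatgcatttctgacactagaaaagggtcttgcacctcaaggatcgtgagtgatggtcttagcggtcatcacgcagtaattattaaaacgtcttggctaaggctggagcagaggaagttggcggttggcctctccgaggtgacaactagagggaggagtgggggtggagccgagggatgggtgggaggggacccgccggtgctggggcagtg
Ptgs2 (chr13:64713813-64714062, plus strand): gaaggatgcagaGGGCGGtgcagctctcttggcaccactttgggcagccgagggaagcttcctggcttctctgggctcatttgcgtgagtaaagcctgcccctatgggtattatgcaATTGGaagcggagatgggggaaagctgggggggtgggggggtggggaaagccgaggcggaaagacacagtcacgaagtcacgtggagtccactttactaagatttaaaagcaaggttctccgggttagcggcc
The Ptgs1 window held none of the 4 motifs. The Ptgs2 window held GGGCGG starting 238 bases before the gene start and CCAAT on the opposite strand starting 133 bases before it. Of the 9 windows, GGGCGG was present in 6, CCAAT in 2, TATAAA in 2 and TGACG in 1. These matches are letters in a window and say nothing of binding.

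Ptgs1 was the cyclooxygenase detected throughout. At day 1 it had 30.9, 214 and 72.4 CPM in water-loaded rats, against 17.9, 92.2 and 39.4 CPM in control rats. On day 2 Ptgs1 was at 64.5, 164, 64.9 and 50.6 CPM in water-loaded rats, against 33.3, 45.6, 45.7 and 43.3 CPM in control rats. On day 4 Ptgs1 was at 38.6, 60 and 47.3 CPM in water-loaded rats, against 55, 6.97 and 45.5 CPM in control rats. In CPM the day 2 groups did not overlap, with every water-loaded rat above every control rat, while those of day 1 and day 4 did. In FPKM the day 2 groups overlapped, with 17 in water-loaded rat 4 and 18 in control rat 3. Ptgs1 was the only 1 of 9 genes with such a separation upward at day 2, against 2.35% of all genes. Its exact two-sided permutation p of 0.0286, unadjusted, is the smallest that 4 against 4 rats can give. That p follows from the separation itself and adds nothing to it. The edgeR test at day 2 gave Ptgs1 an unadjusted p of 0.117, and it did not pass.

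Over the average of days Ptgs1 was 1.81-fold higher in water-loaded rats, a log2 difference of 0.85 (SE 0.4, 95% interval 0.01 to 1.69). This had an unadjusted p of 0.0466 and did not pass, with an edgeR adjusted p of 0.363. The exact permutation within days gave p = 0.0632. Differences at days 1, 2 and 4 were 1.09, 1.04 and 0.44 on the log2 scale. The highest value, 214 CPM, came from the water-loaded library with the proximal tubule markers at 9150 CPM. Without that library the average was 0.51. In FPKM that library had 52.7, and the highest value was 60.1 in day 2 water-loaded rat 2. Without both day 1 libraries that stood apart, the average was 0.37 and the day 1 difference was -0.36. At day 2, where Ptgs1 separated the groups in CPM, proximal tubule markers summed to 104 to 194 CPM in water-loaded rats and 154 to 2770 CPM in control rats. Immune cell markers there summed to 144 to 718 CPM in water-loaded rats and 130 to 953 CPM in control rats, and their part in the result was not tested.

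Ptgs2 was found in few rats and is given as raw counts. At day 1 it had 178, 2 and 20 counts in water-loaded rats, against 0, 5 and 0 in control rats. At day 2 it had 14, 0, 0 and 1 counts in water-loaded rats, against 1, 41, 203 and 0 in control rats. At day 4 it had 0, 112 and 2 counts in water-loaded rats, against 1, 0 and 0 in control rats. It was over the floor of 3 counts in 4 of 10 water-loaded rats and 3 of 10 control rats, and at 0 in 8 of all 20. The highest counts, 203, 178 and 112, each came from a single rat, of the day 2 control, day 1 water-loaded and day 4 water-loaded groups. The unadjusted p of the difference between days was 0.0283, against 8.56% of all genes under 0.05, and the edgeR adjusted p was 0.514. No fold is given because several groups were at or under the floor. Ptgs2 is also known as a gene of the macula densa. The summed markers of thick ascending limb and macula densa (7 genes) were 638 to 901 CPM in water-loaded rats and 493 to 664 CPM in control rats at day 1. They were 395 to 881 CPM in water-loaded rats and 811 to 1440 CPM in control rats at day 2, and 396 to 623 CPM in water-loaded rats and 327 to 828 CPM in control rats at day 4. The control rat with 203 counts of Ptgs2 had the highest sum of all, 1440 CPM, and the water-loaded rat with 178 counts the highest of the water-loaded rats, 901 CPM. The water-loaded rat with 112 counts had 462 CPM. Day 2 control rat 1 had 1200 CPM with 1 count of Ptgs2, and day 2 control rat 2 had 811 CPM with 41 counts. Of these markers Nos1 was at 0 in all libraries, and the part of these cells in the Ptgs2 counts was not tested.

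Of the 9 genes tested, the PGE synthases had the smallest SD within groups, a measure that leaves out differences between days. Ptges, which acts together with the inducible cyclooxygenase, had 595, 587 and 690 CPM in day 1 water-loaded rats, against 1110, 876 and 653 CPM in day 1 control rats. Day 2 values were 550, 471, 716 and 784 CPM in water-loaded rats, against 604, 574, 672 and 1190 CPM in control rats. Day 4 values were 880, 510 and 585 CPM in water-loaded rats, against 756, 367 and 697 CPM in control rats. The groups overlapped at every day. Its mean was 637 ± 128 CPM in water-loaded rats and 750 ± 248 CPM in control rats, mean ± SD over 10 rats each. The log2 difference over the average of days was -0.22 (95% interval -0.6 to 0.17, edgeR adjusted p = 0.706). Its SD within groups was 0.41 on the log2 scale, and 4.2% of tested genes had a smaller one.

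Ptges2 had 128, 208 and 194 CPM in day 1 water-loaded rats, against 351, 281 and 254 CPM in day 1 control rats. The highest water-loaded rat was thus under the lowest control rat, a separation that held for 1 of 9 genes and for 5.17% of all genes. The day 1 log2 difference was -0.74 (SE 0.39, edgeR adjusted p = 0.363), and the exact permutation p of 0.1 is the smallest that 3 against 3 rats can give. At day 2 the values were 157, 167, 87.7 and 250 CPM in water-loaded rats, against 111, 132, 134 and 86.2 CPM in control rats, and the groups overlapped. At day 4 they were 102, 139 and 239 CPM in water-loaded rats, against 257, 197 and 119 CPM in control rats, and they overlapped again. Over the average of days the log2 difference was -0.16 (95% interval -0.61 to 0.29, edgeR adjusted p = 0.86). Ptges2 overlaps a long noncoding RNA gene in the reference table, and the strand setting of the counting is not given in the sources used here.

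Ptger1 encodes EP1, which in the collecting duct is known for reducing sodium absorption. At day 1 it had 79.9, 41.7 and 64.2 CPM in water-loaded rats, against 16, 125 and 118 CPM in control rats. Day 2 Ptger1 values were 46.1, 42.9, 27.1 and 62.3 CPM in water-loaded rats, against 73.9, 36.8, 95.7 and 87 CPM in control rats. Day 4 Ptger1 values were 37.1, 59.2 and 118 CPM in water-loaded rats, against 189, 305 and 93.3 CPM in control rats. The groups overlapped at every day, by a single rat at days 2 and 4. The lowest control value, 16 CPM, came from the library with fibroblast and pericyte markers at 1610 CPM.

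Over the average of days Ptger1 was 1.85-fold lower in water-loaded rats, with a log2 difference of -0.88 (SE 0.34, 95% interval -1.6 to -0.17). Its unadjusted p of 0.0183 was the smallest of the 9 genes, and it did not pass, with an edgeR adjusted p of 0.252. The exact permutation within days gave p = 0.107. The differences at days 1, 2 and 4 were -0.48, -0.72 and -1.45 on the log2 scale. Of these, the day 4 difference alone had an unadjusted p under 0.05, at 0.0319 in edgeR, with an adjusted p of 0.674. The test of the difference between days gave an adjusted p of 0.99 in edgeR. The principal cell markers summed at day 4 to 20000 to 29700 CPM in water-loaded rats and 36800 to 72700 CPM in control rats, and their part in this value was not tested.

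**Figure D3:**
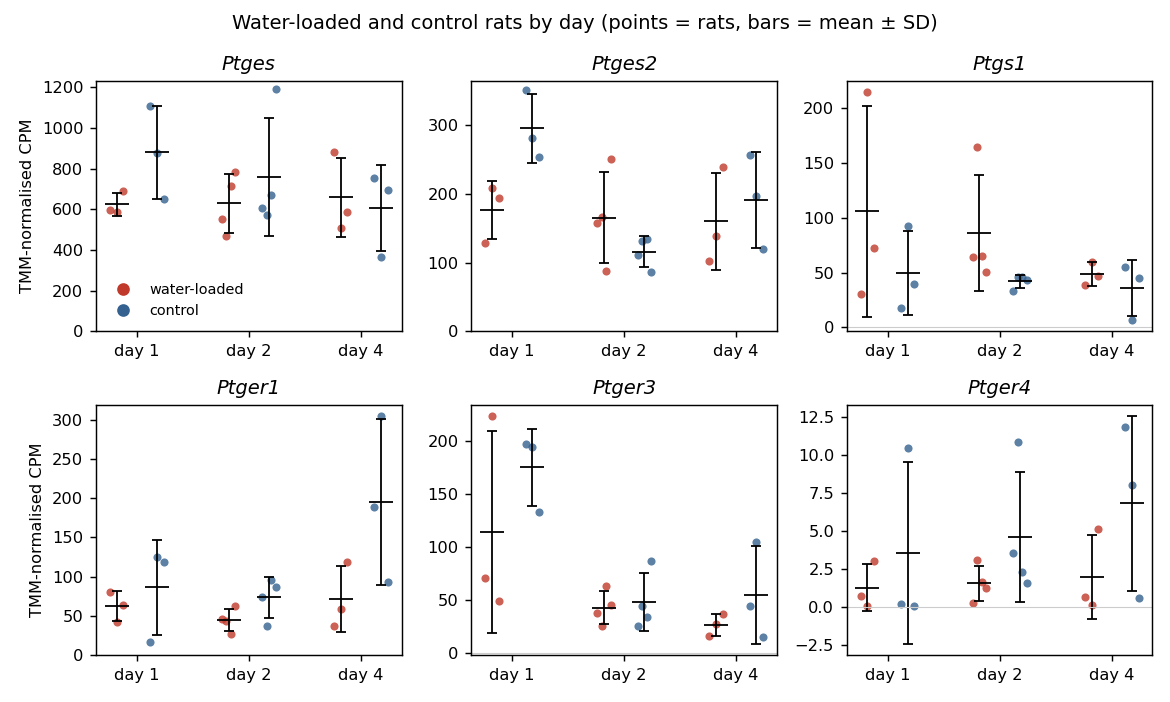
TMM-normalised CPM of 6 genes by day, water-loaded rats left of control rats, with 1 point per rat and bars for the mean ± SD of 3 or 4 rats. The Ptgs1 groups do not overlap at day 2, the Ptges2 groups do not overlap at day 1, and Ptger3 is highest at day 1 in both treatments.

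Ptger4 encodes EP4, which raises cyclic AMP. It had 0.717, 0.0529 and 3.01 CPM in day 1 water-loaded rats, against 0.166, 10.5 and 0.0493 CPM in day 1 control rats. Its day 2 values were 0.262, 3.07, 1.63 and 1.21 CPM in water-loaded rats, against 3.57, 10.9, 2.27 and 1.59 CPM in control rats. Its day 4 values were 0.663, 0.121 and 5.13 CPM in water-loaded rats, against 11.9, 8.02 and 0.553 CPM in control rats. The groups overlapped at every day. The 4 rats above 6 CPM, a cut set after the values were seen, were all controls. Over the average of days the exact permutation within days gave p = 0.263. The log2 difference over the average of days was -1.62 with a wide interval of -3.69 to 0.46 (edgeR adjusted p = 0.521). In the reference table Ptger4 overlaps a long noncoding RNA gene.

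Ptger3 encodes EP3, which lowers cyclic AMP and so counters vasopressin in the duct. At day 1 it had 70.8, 223 and 48.7 CPM in water-loaded rats, against 197, 194 and 133 CPM in control rats. At day 2 it had 38, 25.7, 63.1 and 44.9 CPM in water-loaded rats, against 26, 44.6, 34.2 and 86.8 CPM in control rats. At day 4 it had 15.7, 27.6 and 36.6 CPM in water-loaded rats, against 44.5, 105 and 15.1 CPM in control rats. Treatments overlapped at every day, and the log2 difference over the average of days was -0.6 (SE 0.36, 95% interval -1.35 to 0.14, edgeR adjusted p = 0.497). A pseudogene, Vdac3-ps1, overlaps Ptger3 in the reference table.

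Ptger3 differed between the days of the study. In both treatments together it averaged 145 ± 72.2 CPM at day 1 (SD, n = 6), 45.4 ± 20.6 CPM at day 2 (n = 8) and 40.7 ± 33.4 CPM at day 4 (n = 6). The fitted log2 differences from day 1 were -1.64 at day 2 and -1.89 at day 4. A test of days over both treatments, added after these values were seen, gave an edgeR adjusted p of 0.015. Ptger3 was the 1 of 9 genes called in it, against 1205 genes or 8.33% of all genes tested. At an unadjusted p under 0.05 there were 2 of 9, against 27.4% of all genes. The call was lost without day 1 water-loaded rat 2, where Ptger3 was at 223 CPM, with an adjusted p of 0.0761. It was lost also without both day 1 libraries that stood apart, with an adjusted p of 0.091, while the log2 difference of day 2 from day 1 was then -1.15. Day is also the time of collection, so any handling or time on DDAVP that went with the day cannot be told apart from it.

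In control rats alone, where the water intake did not change, every day 1 value of Ptger3 lay above every value of days 2 and 4. This held for 1 of 9 genes and for 3.59% of all genes, and the opposite order for 0 of 9 and 3.52%. Among water-loaded rats day 1 lay wholly above the later days for 0 of 9 genes, against 3.53% of all genes, and wholly below them for 0 of 9, against 4.62%. The test of days in control rats called 0 of 9 genes, against 2.45% of all genes, with an edgeR adjusted p of 0.113 for Ptger3 and 0.0876 for Ptges2. Unadjusted p-values under 0.05 were found for 3 of 9, Ptges2, Ptger3 and Ptger1, against 22.5% of all genes. DESeq2 gave adjusted p-values of 0.0299 for Ptger3 and 0.0291 for Ptges2 in the same comparison. Ptges2 in control rats averaged 295 ± 49.9 CPM at day 1 (SD, n = 3), 116 ± 22.4 CPM at day 2 (n = 4) and 191 ± 69.5 CPM at day 4 (n = 3). Its fitted log2 differences from day 1 were -1.35 at day 2 and -0.63 at day 4. In water-loaded rats Ptges2 averaged 176, 165 and 160 CPM at days 1, 2 and 4. In water-loaded rats alone the test of days, also added later, called 0 of 9 genes, against 0.263% of all genes (1 of 9 at an unadjusted p under 0.05, against 12.1% of all genes), and Ptger3 had an adjusted p of 0.24. Fibroblast and pericyte markers summed to 34.6 to 1610 CPM at day 1, 24.4 to 123 CPM at day 2 and 6.61 to 74.5 CPM at day 4 over both treatments. Proximal tubule markers summed to 78.9 to 9150, 104 to 2770 and 57.3 to 471 CPM at those days, and the part of either in the Ptger3 values was not tested. The sequence before the Ptger3 gene, shown because this gene carries the call, is marked as above.
Ptger3 (chr2:249264832-249265081, plus strand): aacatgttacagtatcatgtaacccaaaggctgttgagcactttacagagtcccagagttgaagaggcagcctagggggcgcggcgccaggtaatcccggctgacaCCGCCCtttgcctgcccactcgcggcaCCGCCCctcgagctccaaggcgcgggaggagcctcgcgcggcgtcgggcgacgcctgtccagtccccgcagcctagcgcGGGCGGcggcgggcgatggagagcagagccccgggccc
It held GGGCGG 3 times, starting 144 and 117 bases before the gene start on the opposite strand and 38 bases before it on the same strand.

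The make-up of the EP receptor mRNA was not alike in the libraries of different days. As a share of the summed FPKM of Ptger1, Ptger3 and Ptger4, Ptger1 made up 36.5% ± 20.4 in water-loaded rats and 26.6% ± 18.3 in control rats at day 1 (mean ± SD of 3 rats each). It made up 44.8% ± 13.5 in water-loaded rats and 53% ± 16.5 in control rats at day 2 (n = 4 each). By day 4 the Ptger1 share was 65.4% ± 3.27 in water-loaded rats and 74.4% ± 7.38 in control rats (n = 3 each). Ptger1 was over 50 percent of the sum in 0 of 6 libraries at day 1, 4 of 8 at day 2 and 6 of 6 at day 4, whatever the treatment. The lowest Ptger1 shares of day 1, 12.9% and 6.02%, came from the pair of libraries that stood apart, and the other 4 ranged from 32.6% to 49.5%. Ptger3 ranged from 47.4% to 93.9% at day 1 and from 16.8% to 37% at day 4. Ptger4 stayed at or below 13.2% in every library. These shares are a description of levels chosen after they were seen, with no test.

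**Figure D4:**
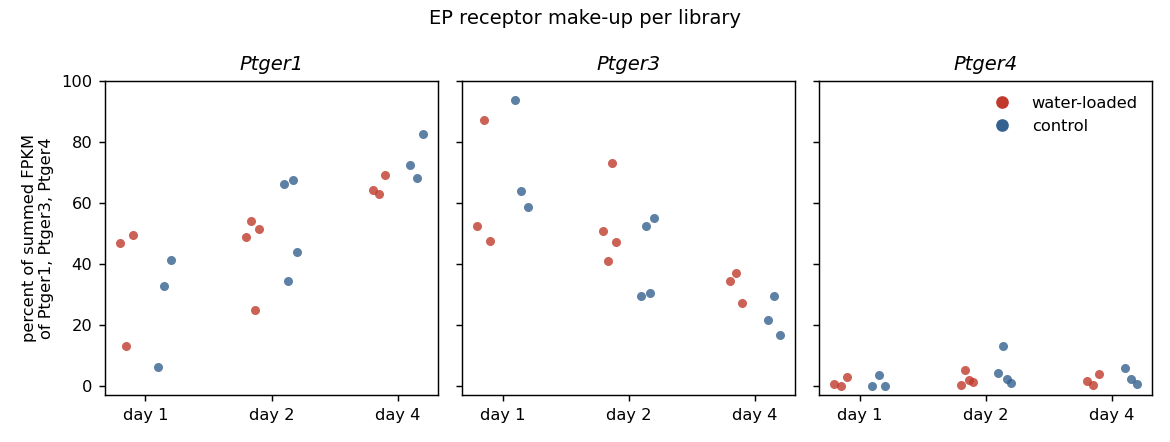
Share of the summed FPKM of Ptger1, Ptger3 and Ptger4 taken by each receptor gene, 1 point per library, water-loaded rats left of control rats at each day. The Ptger1 share is at most 49.5% in the 6 day 1 libraries and at least 62.8% in the 6 day 4 libraries.

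Slco2a1 carries PGE2 into cells for breakdown, and its values scattered most. At day 1 it had 0.276, 76.8 and 0.458 CPM in water-loaded rats, against 29.8, 9.82 and 0.362 CPM in control rats. At day 2 it had 3.28, 1.93, 5.24 and 2.67 CPM in water-loaded rats, against 24.6, 10.5, 0.0453 and 2.4 CPM in control rats. At day 4 it had 4.37, 5.06 and 2.06 CPM in water-loaded rats, against 16.8, 0 and 0.0553 CPM in control rats. Water-loaded rats fell inside the range of the control rats at days 2 and 4. Its SD within groups was 3.23 on the log2 scale, and 98.8% of tested genes had a smaller one. The log2 difference over the average of days was -0.37 (95% interval -2.74 to 1.99, edgeR adjusted p = 0.991), and its sign turned in limma-voom, where it was 1.04. The 3 highest values, 76.8, 29.8 and 24.6 CPM, came from day 1 water-loaded rat 2, day 1 control rat 1 and day 2 control rat 1, where proximal tubule markers summed to 9150, 1050 and 2770 CPM. Below them, 16.8, 10.5 and 9.82 CPM came from day 4 control rat 1, day 2 control rat 2 and day 1 control rat 2. Proximal tubule markers summed there to 189, 154 and 78.9 CPM. Day 1 control rat 1 also had endothelial markers at 1110 CPM and fibroblast and pericyte markers at 1610 CPM. The part of any of these cells in the Slco2a1 values was not tested. In the reference table Slco2a1 overlaps a pseudogene.

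Hpgd was at 0 counts in 16 of 20 libraries and had at most 2 counts in the others, under the floor of 3. At this depth it was not detected above the floor in any group, and no difference could be tested.

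Genes around the pathway were counted from 3 lists. Of 26 other prostanoid genes (further phospholipases, synthases, receptors and reductases), 20 rows were tested and 0 passed over the average of days, with 13 positive and 7 negative differences and a median of 0.06 on the log2 scale. Of 18 other arachidonate enzymes, 14 rows were tested and 0 passed, with 9 positive, 5 negative and a median of 0.14. Of 28 genes of EP receptor signalling (G proteins, adenylyl cyclases, phospholipase C, arrestins and kinases), 28 rows were tested and 0 passed, with 11 positive, 17 negative and a median of -0.08. The median over all genes was 0.01. Unadjusted p-values under 0.05 were found for 2, 3 and 3 of the 20, 14 and 28 rows of these lists in that order, against 13.5% of all genes.

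The list genes with the smallest p-values did not pass either. Mgll, monoacylglycerol lipase, which can supply arachidonic acid, averaged 23 ± 12.3 CPM in water-loaded rats and 72.8 ± 30.7 CPM in control rats (mean ± SD of 10 rats each). The fitted value was -1.64 on the log2 scale (SE 0.34), and its edgeR adjusted p of 0.0535 was above the threshold of 0.05. Pla2g16, a phospholipase, averaged 66.5 ± 28.1 CPM in water-loaded rats and 117 ± 164 CPM in control rats, with medians of 52.9 CPM in water-loaded rats and 63.7 CPM in control rats (adjusted p = 0.459 in edgeR). Tbxas1, thromboxane synthase, averaged 4.11 ± 3.8 CPM in water-loaded rats and 1.96 ± 3.17 CPM in control rats (adjusted p = 0.224 in edgeR). Adcy6, the adenylyl cyclase that serves the V2 receptor in the duct, averaged 328 ± 122 CPM in water-loaded rats and 440 ± 116 CPM in control rats (log2 difference -0.42, SE 0.19, edgeR adjusted p = 0.325). Gnaq, a G protein subunit that EP1 can use, had 0.874 ± 0.579 CPM in water-loaded rats and 5.41 ± 7.32 CPM in control rats, and Arrb1, an arrestin, had 2.09 ± 2.15 CPM in water-loaded rats and 1.17 ± 1.48 CPM in control rats. Their edgeR adjusted p-values were 0.345 and 0.299. The arachidonate enzymes with the smallest p-values, Cyp4a2, Cyp2j4 and Cyp4a8, had edgeR adjusted p-values of 0.213, 0.249 and 0.34. Those of the Cyp4a family are known from the proximal tubule, and 1 row of Cyp4a2 averaged 46.9 ± 139 CPM in water-loaded rats and 17 ± 48.3 CPM in control rats. The medians of that row were 1.25 CPM in water-loaded rats and 0.262 CPM in control rats.

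For the 3 genes with the highest mean FPKM, a rule that left out Ptger3 although its level could not be told from that of Ptger1, the genes with the most similar pattern over the 20 libraries were sought among 7282 genes, by Pearson correlation of log2 CPM. The libraries share treatment, day and scaling, so these are descriptions. Without the 2 libraries farthest from the median, r was 0.72 to 0.88 for 8 of the 9 pairs named here. Ptges was like Gnas (r = 0.83, Spearman rho 0.75, r without those libraries 0.72), the stimulatory G protein subunit, and Dhh (r = 0.76, rho 0.79, r without those libraries 0.84), whose order turns with the measure, and Scg5 (r = 0.74, and 0.49 without those 2 libraries). Ptges2 was most like Mri1 (r = 0.89, rho 0.89), then Cyc1 (r = 0.87), a subunit of mitochondrial complex III, and Zfp444 (r = 0.82). Ptger1 was most like Fam110a (r = 0.86, rho 0.83), Cyhr1 (r = 0.85) and Chtf8 (r = 0.84).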

How the data were processed

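Per the submitters' processing notes, reads were handled with Trimmomatic 0.32, STAR 2.4.0.1, SAMtools and HTSeq on build rn6, with no settings, annotation or use of strand given in the sources used here. Per the labels' protocols, cDNA was made in the tubule lysate by a method written for single cells and then amplified, without molecular identifiers, so reads are not independent molecules and floors cover counting error only. The authors deposited whole-number counts per gene and FPKM per library. Summary lines naming no gene held 31.5% to 35.6% of the counts of a library and were left out.

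Counts of all 20 libraries entered 1 quasi-likelihood fit in edgeR 4.0.16 (R 4.3.3) with a mean per group, TMM factors and filterByExpr (minimum count 10), which left 14472 genes. Contrasts were water-loaded minus control per day and averaged with equal weight, with F tests for the difference between days and for days in control rats. The tests of days in water-loaded rats and in both treatments were added after values were seen. P-values were adjusted by Benjamini-Hochberg across the 14472 genes and called under 0.05. Exact two-sided permutations used mean log2 CPM (prior count 2), within days for the average. The scripts were tested on simulated data with 14305 genes, where 99% of 100 genes with a log2 change of 4 were recovered in the average of days. The changed genes had a mean of at least 10 CPM, and 8 genes without a change were also called. FPKM served to compare levels between genes and, as log2(FPKM + 1) and log2(FPKM + 0.1) in limma 3.58.1, as alternatives; other alternatives were DESeq2 1.42.0, limma-voom, other scaling and filters, a replicate block and leaving out libraries.

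The members and lists were chosen with earlier results of these data known. Values per rat are given for all members except Hpgd, which is summarised. Counts of members passing cover all tested members in every comparison. Fitted differences and p-values of single days and of the tests of days are given for some members only. Aqp2 and Aqp3 serve as the mark of the water load. Of each pathway list, up to 3 genes with the smallest unadjusted p over the average of days and a mean of at least 1 CPM are named. For the 3 members with the highest mean FPKM, the 3 genes of at least 10 CPM with the highest correlation are named. List symbols without a row of that name, Pla2g4c, Cyp2j3, Cyp4a3 and Pecam1, were not analysed here. Deviations from the group mean in rats of the same number correlated at 0.148, 0.147, 0.154 and 0.236 at day 2. The correlations were -0.054, -0.059 and 0.06 at day 1 and -0.004, -0.034 and -0.091 at day 4. Those of rats of different numbers are not given here. At day 2 the best match was the control rat of the same number for water-loaded rats 1, 2 and 4, and not for rat 3. At day 1 this held for rat 3 and not for rats 1 and 2, and at day 4 for no rat. The numbers come from the sample titles, which do not say that rats of the same number are pairs. Promoter sequences come from RefSeq (GRCr8), matched by symbol. Figures were drawn with matplotlib.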

Additional observations from a re-analysis of the deposited data

Results flagged for a closer look

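Of 18 groups of 4 rats examined at day 2, 3 had a library far from the other 3, each time the highest. The cut used flags about 1 in 20 groups of normally distributed values. CPM values were not transformed and include 0, and the rate for such values was not measured. The count of 3 is therefore not set against chance. Ptges was at 1190 CPM in day 2 control rat 4, against 574, 604 and 672 CPM in the other control rats of that day. Ptgs1 was at 164 CPM in day 2 water-loaded rat 2, against 50.6, 64.5 and 64.9 CPM in the other water-loaded rats. Ptgs2 was at 0.215 CPM in day 2 water-loaded rat 1, which is 14 counts, against 0, 0 and 0.0248 CPM in the other water-loaded rats.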

How the results depend on the processing

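Over the average of days, at each day and for the difference between days, 0 of the 9 genes were called under every alternative run, the replicate block included. In all genes the count over the average of days was 23 in edgeR, 714 in DESeq2, 63 in limma-voom and 5 with the replicate block. The days in control rats called 0 of the 9 genes in edgeR, 2 in DESeq2 (Ptges2 and Ptger3) and 1 in limma-voom (Ptger3), with 355, 1589 and 508 of all genes. The days in both treatments called 1 gene, Ptger3, and 0 without the 2 day 1 libraries that stand apart; leaving out 1 library each gave 0 to 1. Its adjusted p ranged from 0.000296 to 0.091 over 28 alternatives. The cause of these differences was not tested, and the day 1 libraries were left out as an alternative chosen with their values known.

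Of 1064 alternative values for the 36 log2 differences of single genes, 1020 kept their direction and their side of the threshold and 44 changed sign, none of them called. Over the average of days Slco2a1 was 1.24 with the replicate block, 1.04 in limma-voom and 0.29 as log2(FPKM + 0.1), and Pla2g4a was 0.09 in limma-voom, 0.07 as log2(FPKM + 1) and 0.17 as log2(FPKM + 0.1). At day 1 Ptger4 was 1.72 with the block, 0.17 in limma-voom and 0.05 as log2(FPKM + 0.1). Slco2a1 at day 1 was -0.2 with the block, -1.07 in limma-voom, -0.14 and -0.76 on the FPKM scales with 1 and 0.1 added, and -3.8 without the 2 libraries. Ptger1 at day 1 was 0.02 and 0.06 on the FPKM scales, and Ptgs1 was -0.36 without the 2 libraries. At day 2 Pla2g4a was 0.11 with the block, 0.47 in limma-voom and 0.23 as log2(FPKM + 0.1), and Slco2a1 was 0.39 in limma-voom. At day 4 Slco2a1 was 4.52 with the block, 3.8 in limma-voom, and 0.36 and 1.84 on the FPKM scales.

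Leaving out 1 library each gave ranges across 0 for Slco2a1 of -2.42 to 2.1 (average), -5.18 to 2.34 (day 1) and -1.15 to 6.87 (day 4). They were -2.4 to 0.06 (average) and -3.18 to 3.54 (day 1) for Ptger4, and -0.45 to 0.15, -1.4 to 0.31 and -1.07 to 0.31 (average, day 1 and day 2) for Pla2g4a. They were -0.38 to 0.02 and -0.14 to 0.31 (days 2 and 4) for Ptges, -0.4 to 0.29 (day 2) for Ptger3, -0.67 to 0.02 (day 4) for Ptges2 and -0.05 to 0.89 (day 4) for Ptgs1. Over the average of days, with 1 library left out each, Ptger1 stayed between -1.07 and -0.73 and Ptgs1 between 0.51 and 1.12. Without the 2 day 1 libraries that stand apart Ptger1 was -0.97 and Ptgs1 was 0.37. On the FPKM scales with 1 and 0.1 added Ptger1 was -0.6 on both and Ptgs1 was 0.95 and 1.03. The replicate block could not be fitted for the days in control rats, and fits of each day alone give only the day contrasts. Ptgs2 and Hpgd lie at or under the floor of 3 counts in most libraries, so no fold is given for them.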
